A study of Mus musculus with 12 samples.

Results

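Nuclear genes of the mitochondrial respiratory chain were followed in cultured microglia of the mouse. Microglia are macrophages that live in the brain. Members were all nuclear genes whose RefSeq symbol begins with Nduf, Sdh, Uqcr, Atp5, Cox4, Cox5, Cox6, Cox7 or Cox8 and for which 4 or more of the 12 arrays gave a probe signal well above background. Of 97 such genes on the array, 93 were kept, and all 93 were well above background on every array. They stood among 19801 genes tested, of which 13952 had a gene symbol. The 93 comprised 36 subunits of complex I, 4 of complex II, 8 of complex III, 16 of complex IV, 17 of complex V and 12 assembly factors. The 4 genes left out were Cox7b2, Cox8b and Cox8c, isoforms of complex IV subunits, and Ndufa4l2, a relative of the complex IV subunit Ndufa4. Cox8b was above background on 1 array and the other 3 on none.

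Microglia were shaken off mixed glial cultures from the brains of newborn C57BL/6 mice. They were exposed for 16 h to Th1 supernatant or to Th17 supernatant, the medium collected from these helper T cells. The paper states that cultured Th1 cells were harvested and restimulated with antibodies, and that the supernatant of this restimulation was collected. It also states dilution with an equal volume of fresh DMEM, for supernatant and control medium alike. For the third group, called untreated in the labels, T cell medium without such cells (IMDM in the sample titles) took its place. Each group had 4 arrays, from experiments 12, 13, 14 and 16, which the study describes as independent. The untreated state is therefore a cultured microglia in T cell medium and not a microglia of the adult brain.

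The respiratory chain is a series of protein complexes in the inner mitochondrial membrane. Complex I takes electrons from NADH and complex II from succinate, both hand them through ubiquinone to complex III, and cytochrome c carries them on to complex IV, where oxygen is reduced. Complexes I, III and IV pump protons across the membrane, and the return of the protons drives ATP synthesis at complex V. Most subunits are encoded in the nucleus and a few, which were not analysed here, in mitochondrial DNA. In macrophages, activation by interferon and bacterial products is known to change the use of this chain, and complex II is a known point of control there. Microglial RNA reports on the transcripts alone, and in a bulk sample fewer cells of a type and less RNA per cell cannot be told apart.

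Signals are quantile-normalised intensities scaled to a 75th percentile of 1500, and each gene is given by 1 probe, so that the level of a gene is compared between arrays. Between genes, signal is used only for the brightness of probes and for sums over markers, where bright probes weigh most. A gene passed where its adjusted p was under 0.01 in limma, and it was called where it also changed more than 2-fold, the thresholds of the study. Changes are log2 differences ± SE of the fit. Of 10 microglial markers 9 were kept (all but Cd68), with a summed signal of 1410000 to 1550000 on Th1 arrays, 1330000 to 1710000 on Th17 arrays and 1270000 to 1520000 on untreated arrays. Aif1, Ptprc, C1qa and Fcer1g rose after Th1 supernatant (1.18, 1.04, 0.84 and 0.43), Trem2 fell by 2.50, and the other 4, Csf1r and Tyrobp among them, did not pass. Of 10 astrocyte markers 6 were kept, with a summed signal of 4170 to 5740 on Th1 arrays, 4100 to 11900 on Th17 arrays and 4930 to 12000 on untreated arrays, while Slc1a2, Gja1, Sox9 and Gjb6 were not kept. Of the 6, Fabp7 fell by 2.24 after Th1 supernatant and the other 5 did not pass. For oligodendrocyte lineage markers (7 of 9 kept) the sums ran from 14400 to 21000 on Th1 arrays, from 15300 to 20500 on Th17 arrays and from 16200 to 32400 on untreated arrays, with the highest sum on the untreated array of experiment 14. After Th1 supernatant Mag and Cnp were higher (2.06 and 1.67), Cspg4 and Mbp lower (-4.24 and -1.6), and the other 3 did not pass. T cell markers (5 of 9 kept, with Cd3d, Cd3g, Cd2 and Cd8a among those not kept) summed to 7440 to 8610 on Th1 arrays, 6520 to 11100 on Th17 arrays and 9800 to 11200 on untreated arrays. The T cell sums of the Th1 and untreated arrays did not overlap, but the 5 genes moved apart, with Lck higher by 2.35, Cd28 and Cd5 lower (-5.28 and -1.31) and Cd3e and Cd4 not past the test. The part of all these markers in the results below was not tested.

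Promoter windows are shown for 5 members. Among them are both members that matched the ESRRA motif counted below, so the 5 do not stand for the other members. RefSeq windows of 300 bases (250 before and 50 after the annotated start, assembly GRCm38.p6) were matched for 78 of the 93 members. Sdhd (chr9:50603800-50604099, minus strand) and Sdha (chr13:74350191-74350490, minus strand) belong to complex II and had the largest and the smallest Th1 difference in it. Atp5g3 (chr2:73911277-73911576, minus strand) and Ndufs3 (chr2:90904672-90904971, minus strand) rose, and Ndufaf7 (chr17:78936885-78937184, plus strand) fell. Capitals mark matches, on either strand, to the motifs listed after the windows.
Sdhd: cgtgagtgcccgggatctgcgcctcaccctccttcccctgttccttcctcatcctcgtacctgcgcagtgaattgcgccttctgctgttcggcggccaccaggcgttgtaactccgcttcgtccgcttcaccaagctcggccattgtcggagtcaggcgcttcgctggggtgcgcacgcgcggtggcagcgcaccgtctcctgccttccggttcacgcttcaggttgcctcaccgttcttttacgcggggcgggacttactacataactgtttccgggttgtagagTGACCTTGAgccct
Sdha: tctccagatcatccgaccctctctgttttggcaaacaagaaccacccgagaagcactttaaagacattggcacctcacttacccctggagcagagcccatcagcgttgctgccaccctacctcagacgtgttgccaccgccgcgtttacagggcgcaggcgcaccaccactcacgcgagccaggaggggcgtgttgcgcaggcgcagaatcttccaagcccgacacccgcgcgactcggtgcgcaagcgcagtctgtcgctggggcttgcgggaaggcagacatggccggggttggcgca
Atp5g3: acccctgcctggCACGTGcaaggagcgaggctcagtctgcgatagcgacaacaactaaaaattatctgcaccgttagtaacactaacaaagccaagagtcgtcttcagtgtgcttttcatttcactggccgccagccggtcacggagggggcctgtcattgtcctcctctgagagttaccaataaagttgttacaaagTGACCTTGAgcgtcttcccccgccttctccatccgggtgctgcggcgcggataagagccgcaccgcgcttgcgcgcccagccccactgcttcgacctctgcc
Ndufs3: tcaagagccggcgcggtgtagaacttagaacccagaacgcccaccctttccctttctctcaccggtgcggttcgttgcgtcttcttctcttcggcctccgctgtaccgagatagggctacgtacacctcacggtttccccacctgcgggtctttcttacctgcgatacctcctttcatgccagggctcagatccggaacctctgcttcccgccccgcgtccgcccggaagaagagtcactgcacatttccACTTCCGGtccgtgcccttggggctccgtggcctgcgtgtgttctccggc
Ndufaf7: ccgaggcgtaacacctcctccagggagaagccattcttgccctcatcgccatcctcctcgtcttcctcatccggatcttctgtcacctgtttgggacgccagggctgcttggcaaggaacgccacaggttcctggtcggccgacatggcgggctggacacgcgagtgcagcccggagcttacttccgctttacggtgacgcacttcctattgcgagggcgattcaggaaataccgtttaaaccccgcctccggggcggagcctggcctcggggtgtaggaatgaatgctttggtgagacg

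Exact matches to 7 motifs were counted in these windows, as a description of the letters and not of binding. The ESRRA motif TCAAGGTCA, bound by the estrogen-related receptors, stood in 2 of 78 members (2.56%) and in 0.358% of the 11158 tested genes with a window. The 2 were Sdhd and Atp5g3, both with its reverse complement TGACCTTGA in the printed strand, and both genes rose after Th1 supernatant. The NRF1 motif GCGCATGCG, of nuclear respiratory factor 1, was found in 10 members (12.8%, against 3.71% of tested genes), and the YY1 motif AAGATGGCG in 8 (10.3%, against 3.27%). NRF1 matches stood in 1 of the 21 members with a window that rose after Th1 supernatant and in 9 of the other 57. The remaining motifs were no more frequent in members than in tested genes, namely GABPA CCGGAAGT (6.41% against 8.25%), SP1 GGGGCGGGG (15.4% against 22.6%), the STAT motif TTCNNNGAA (6.41% against 8.66%) and the E-box CACGTG (7.69% against 11.1%). No 2 of these motifs overlap in the printed windows, and Sdha and Ndufaf7 held none of them.

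The first comparison asks how respiratory chain transcripts of microglia given Th1 supernatant differed from those of untreated microglia. Of the 93 members, 25 rose (26.9%) and 3 fell (3.23%), while over all genes tested 13.9% rose and 16.2% fell. The changes were small. The median member was higher by 0.22 on the log2 scale, with a range of -1.44 to 1.00, against a median of -0.06 over all genes, and 79 members lay above 0 and 14 below. Past the 2-fold threshold as well, under quantile normalisation, was 1 member, Ndufaf7, which fell, against 15.4% of all genes. The Th1 arrays lay wholly above the untreated arrays in 41 members and wholly below in 4, against 18.8% higher and 21.9% lower over all genes. Members varied less within groups, with a median SD of 0.11 against 0.25 over all genes, so that smaller differences could pass. Among genes at or above the lower quartile of member signal it was 0.10 in members and 0.16 in others. The part of this spread in the shares above was not tested.

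**Figure D1:**
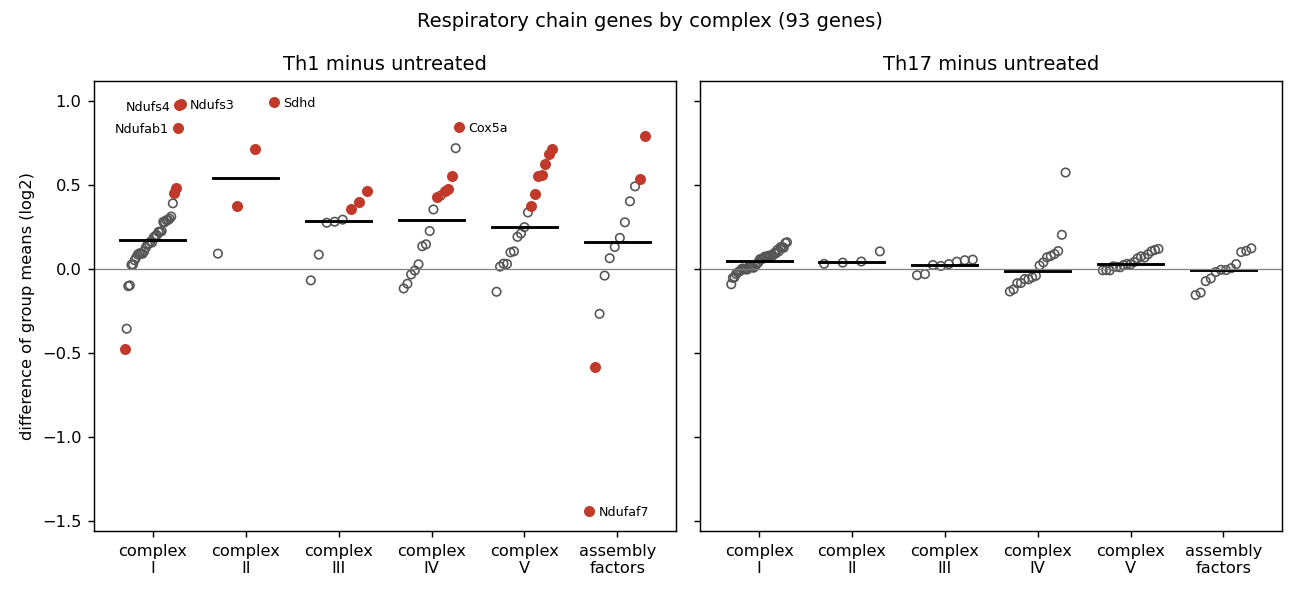
Difference of group means on the log2 scale for each of the 93 respiratory chain genes, Th1 minus untreated at left and Th17 minus untreated at right, by complex. Each circle is 1 gene, filled where its adjusted p was under 0.01, and the bar is the median of the complex. In the left panel 25 genes are filled above 0 and 3 below, with Ndufaf7 lowest at -1.44, and in the right panel none is filled.

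These counts depended on the processing. When each array was scaled to its 75th percentile without quantile normalisation, 48 members rose, 1 fell and 5 were called, with a median of 0.42, while the median over all genes stayed at -0.06 and 15.1% of all genes rose. The 5 called were Sdhd (1.24), Ndufs3 (1.24), Ndufs4 (1.23) and Atp5o (1.01), which rose, and Ndufaf7 (-1.45), which fell. The probes of members were bright, with a median signal of 39400 against 831 over all genes. The parts of the probe and of transcript amount in this brightness were not tested. Among the 70 members at or above the lower quartile of member signal (13800), 22 rose and 1 fell (31.4% and 1.43%), and their median was 0.23. The 2766 other genes at least as bright had a median of -0.16, and 14.4% of them rose and 25.2% fell. With the 75th percentile alone these medians were 0.46 and 0.04, so that the median of the members lay above that of other bright genes under both scalings. Without experiment 14, an alternative chosen after seeing the data, 13 members rose (14.0%, against 10.6% of all genes). No other experiment was left out whole, and the part of the smaller number of arrays in this count was not tested.

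**Figure D2:**
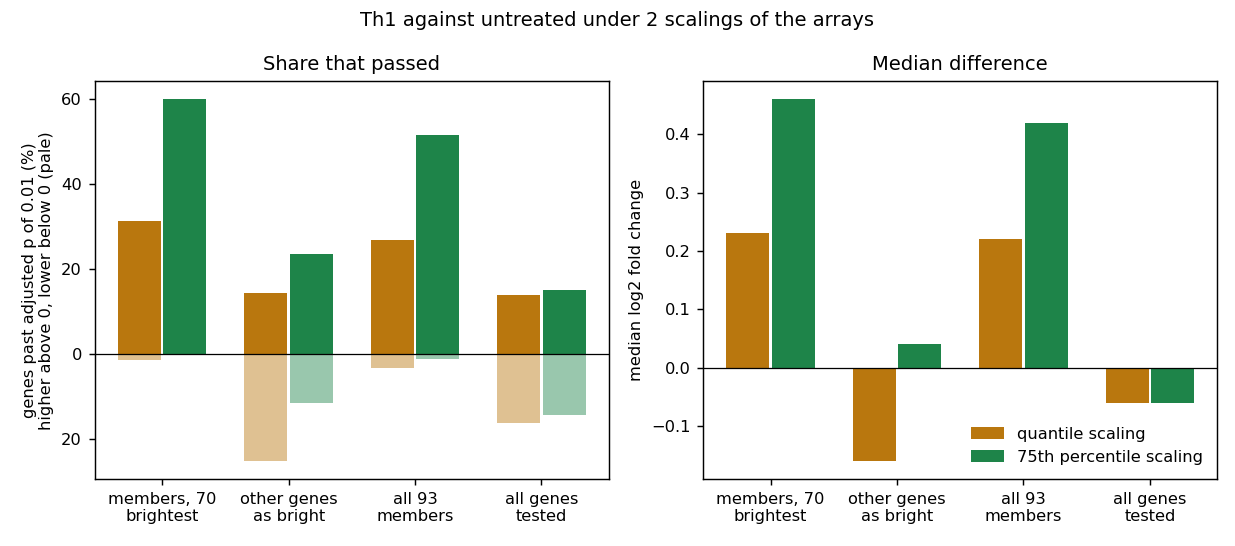
Th1 against untreated under quantile normalisation and under scaling to the 75th percentile alone. The left panel gives the percentage of genes past an adjusted p of 0.01 (higher above 0, lower below 0, pale), the right panel the median log2 fold change, for members at or above the lower quartile of member signal, other genes at least as bright, all 93 members and all genes tested. The share of members that rose was 26.9% under quantile normalisation and 51.6% under the 75th percentile, and the median of other bright genes was -0.16 and 0.04 in the same order.

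Complex II, succinate dehydrogenase, is the smallest complex and also an enzyme of the citric acid cycle. Of its 4 genes 3 rose after Th1 supernatant (75%, against 13.9% of all genes), with a median of 0.54 over the 4. Sdhd encodes a membrane anchor of the complex, and its signal on the arrays of experiments 12, 13, 14 and 16 was 64500, 76700, 78600 and 62600 after Th1 supernatant, 34800, 37300, 41100 and 38600 after Th17 supernatant, and 34000, 32900, 38700 and 35500 in untreated microglia. Every Th1 array was above all 8 other arrays, and Sdhd rose by 1.00 ± 0.11 (1.99-fold, adjusted p = 2.1e-05), just under the 2-fold threshold. Sdhb, the iron-sulfur subunit, stood at 112000, 105000, 98900 and 90500 on Th1 arrays and at 66100, 61900, 60900 and 58500 on untreated arrays, a rise of 0.71 ± 0.10 (adjusted p = 0.000115). The groups again did not overlap.

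Sdhc, the other membrane anchor, had 27900, 27200, 23800 and 24200 on Th1 arrays, against 20500, 20400, 17300 and 21400 on untreated arrays. It rose by 0.37 ± 0.10 (adjusted p = 0.00859), but it no longer passed when any 1 of the 8 arrays compared was left out (adjusted p = 0.0104 to 0.0273). Sdha, the flavoprotein subunit that oxidises succinate, had 21600, 23900, 20400 and 22000 on Th1 arrays and 20200, 20000, 19900 and 22300 on untreated arrays. These values overlapped, and its difference of 0.09 ± 0.08 did not pass (adjusted p = 0.407). Under 75th percentile scaling the difference of Sdha was 0.36 and passed (adjusted p = 0.00476), while Sdhd stood at 1.24 and Sdhb at 0.88, so that the order of the 4 subunits was kept and Sdha remained the least changed.

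**Figure D3:**
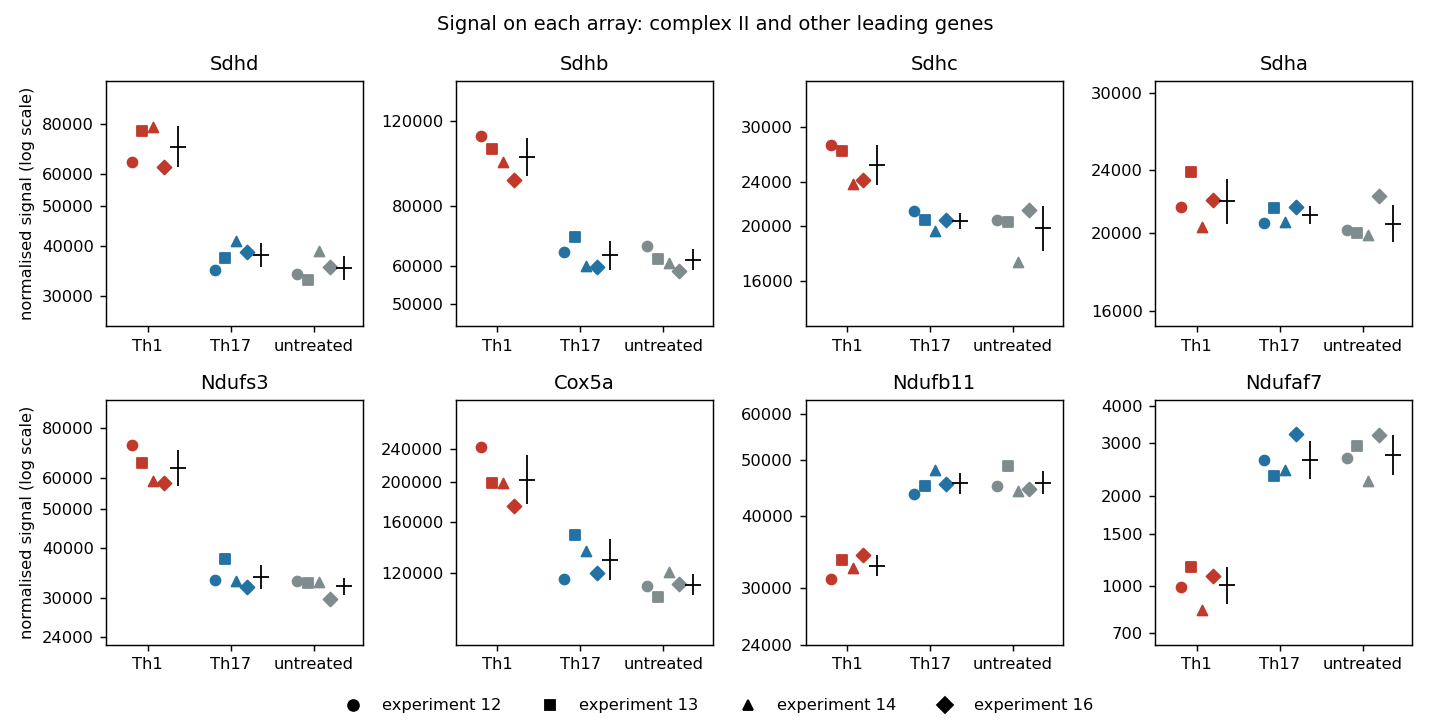
Normalised signal on each of the 12 arrays for the 4 complex II genes and for Ndufs3, Cox5a, Ndufb11 and Ndufaf7, on log axes that differ between panels. Each symbol is 1 array, shaped by experiment, and the bar beside each group is the mean ± SD of the log2 signal (n = 4). Th1 arrays lie above all others for Sdhd, Sdhb and Ndufs3 and below all others for Ndufb11 and Ndufaf7, and the groups overlap for Sdha.

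Complex I, the NADH dehydrogenase, is the largest complex. Of its 36 subunits 5 rose and 1 fell, a share of 13.9% that equals the 13.9% of all genes that rose, with a median of 0.17 and 32 of 36 differences above 0. Ndufs3, a core subunit of the arm that reaches into the matrix, had 72300, 65400, 58900 and 58200 on Th1 arrays, against 33100, 32800, 32900 and 29900 on untreated arrays. It rose by 0.98 ± 0.10 (adjusted p = 1.38e-05). Ndufs4, an accessory subunit needed for a stable complex, had 22100, 22400, 22500 and 17200 on Th1 arrays and 11700, 12200, 9460 and 9620 on untreated arrays, with a rise of 0.97 ± 0.14. For both genes the Th1 arrays lay above all untreated and Th17 arrays.

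Ndufab1, the mitochondrial acyl carrier protein, which also serves fatty acid synthesis, rose by 0.84 ± 0.14, with 3420, 3730, 4060 and 2850 on Th1 arrays and 1720, 1810, 2050 and 2250 on untreated arrays. Ndufs7, the core subunit next to the ubiquinone site, and the membrane arm subunit Ndufb9 rose by 0.48 ± 0.09 and 0.45 ± 0.11. Ndufb11, another subunit of the membrane arm, fell by 0.48 on the log2 scale (SE 0.08, adjusted p = 0.000585), with 31200, 33600, 32500 and 34200 on Th1 arrays and 45100, 48900, 44200 and 44600 on untreated arrays. This fall did not pass under 75th percentile scaling, where the difference was -0.20 (adjusted p = 0.0893). The 3 core subunits of the NADH-binding end did not pass under quantile normalisation, with differences of -0.10 ± 0.12 for Ndufs1, the largest subunit, 0.03 ± 0.09 for Ndufv1, which holds the flavin, and 0.28 ± 0.10 for Ndufv2 (adjusted p = 0.507, 0.837 and 0.042). The Th1 arrays lay above the untreated arrays for Ndufv2 and overlapped them for the other two. Under 75th percentile scaling Ndufv2 passed at 0.57 (adjusted p = 0.00152), while Ndufs1 at 0.15 and Ndufv1 at 0.31 did not. With that scaling 20 complex I genes rose (55.6%, against 15.1% of all genes).

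Complex III, the cytochrome bc1 complex, had 3 of 8 genes that rose (37.5%, against 13.9% of all genes), with a median of 0.29. Uqcrfs1, the Rieske iron-sulfur protein that passes electrons towards cytochrome c, had 27700, 28900, 25500 and 28900 on Th1 arrays, against 21100, 18800, 17800 and 22900 on untreated arrays. Its rise was 0.47 ± 0.10 (adjusted p = 0.00333), and it no longer passed without the Th1 array (0.0115) or the untreated array (0.0128) of experiment 13. The small subunit Uqcrq and the core protein Uqcrc2 rose by 0.40 ± 0.09 and 0.35 ± 0.09. A dimmer kept probe of Uqcrq did not pass (0.31, adjusted p = 0.0218). The other core protein, Uqcrc1, had a difference of 0.08 ± 0.12, and the smallest value of the complex belonged to Uqcr11 at -0.07 ± 0.09, where the sign turned to 0.18 under 75th percentile scaling without passing.

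Complex IV, cytochrome c oxidase, had 5 of 16 genes that rose (31.2%) and none that fell, with a median of 0.29. Over all genes 13.9% rose and 16.2% fell. Cox5a, a subunit on the matrix side, had 243000, 198000, 199000 and 175000 on Th1 arrays, 116000, 149000, 136000 and 120000 on Th17 arrays, and 112000, 105000, 121000 and 113000 on untreated arrays. It rose by 0.85 ± 0.12 (adjusted p = 0.000181), and its Th1 arrays stood above the other 8. Its neighbour Cox5b, which binds zinc, rose by 0.55 ± 0.09, and the membrane subunits Cox7b, Cox8a and Cox7a2 rose by 0.47 ± 0.09, 0.46 ± 0.08 and 0.43 ± 0.08.

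Several complex IV subunits have isoforms that differ between tissues. Cox4i1, the common form of subunit 4, had 172000, 159000, 147000 and 134000 on Th1 arrays and 131000, 130000, 134000 and 127000 on untreated arrays, where the lowest Th1 array lay just above the highest untreated one and equals it as rounded, and its difference of 0.23 ± 0.09 did not pass (adjusted p = 0.0693). Cox4i2, the form known from lung, had a difference of 0.13 ± 0.13. Cox6a1, the form of most tissues, stood just outside the threshold at 0.35 ± 0.10 (adjusted p = 0.0105, and 0.00881 with the experiment as a block), and Cox6a2, the muscle form, at 0.44 ± 0.22 (adjusted p = 0.127). Cox6b2, the testis form of subunit 6b, had 380, 374, 371 and 245 on Th1 arrays, against 231, 237, 241 and 134 on untreated arrays. In each experiment the Th1 value was the higher one, and the difference of 0.72 ± 0.21 passed with the experiment as a block (adjusted p = 0.00165) and not without (0.0178). Cox6b1, the common form, had a difference of 0.15 ± 0.09. Cox7a1, the muscle form of subunit 7a, had -0.12 ± 0.20, where its common counterpart Cox7a2 rose. Ndufa4, once counted in complex I, had -0.09 ± 0.13, and Cox7a2l, counted in complex IV by its name, had -0.01 ± 0.11. None of these last 3 passed.

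Complex V, the ATP synthase, had 7 of 17 genes that rose (41.2%) and none that fell, with a median of 0.25. Over all genes 13.9% rose and 16.2% fell. Atp5b, the catalytic beta subunit, had 184000, 191000, 177000 and 182000 on Th1 arrays, against 124000, 118000, 120000 and 139000 on untreated arrays, and rose by 0.55 ± 0.08 (adjusted p = 0.000263). Atp5a1, the alpha subunit that alternates with it in the catalytic head, had 25700, 74700, 61400 and 86500 on Th1 arrays and 61700, 60600, 56200 and 70800 on untreated arrays. The Th1 array of experiment 12 lay far below the other 3, which were all above their untreated partners, and the difference of -0.14 ± 0.30 did not pass (adjusted p = 0.74). Under 75th percentile scaling it was 0.10 and did not pass either.

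The stalk that holds the head of complex V in place includes Atp5o and Atp5pb, which rose by 0.72 ± 0.14 and 0.62 ± 0.10. Atp5o had 39100, 40900, 35900 and 30200 on Th1 arrays and 23500, 22000, 20400 and 22700 on untreated arrays. Atp5md, a small subunit of the membrane part, rose by 0.69 ± 0.11 and had 91500, 78100, 78100 and 67100 on Th1 arrays, against 44300, 50100, 49000 and 51500 on untreated arrays. The gamma subunit Atp5c1 of the central shaft and the small subunit Atp5k rose by 0.37 ± 0.09 and 0.45 ± 0.10. The dimmer kept probe of each had the same sign and did not pass (0.22 and 0.42, adjusted p = 0.058 and 0.0114). Atp5g1, Atp5g2 and Atp5g3 encode the c subunit of the proton-driven ring, with the same mature protein. Of the 3, Atp5g3 rose by 0.56 ± 0.12 (adjusted p = 0.0025), while Atp5g1 at 0.34 ± 0.12 and Atp5g2 at 0.10 ± 0.09 did not pass (adjusted p = 0.0423 and 0.402). Whether the differences between the 3 genes exceed their errors was not tested, and their probes may share transcripts of similar sequence.

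The 12 assembly factors build complexes I and II and do not stay in them. Of the 12, 2 rose and 2 fell (16.7% each), near the 13.9% and 16.2% of all genes, with a median of 0.16. Ndufaf7, a methyltransferase of complex I assembly, was the member called under quantile normalisation. It had 995, 1160, 832 and 1080 on Th1 arrays, 2630, 2330, 2440 and 3230 on Th17 arrays, and 2690, 2930, 2240 and 3190 on untreated arrays. All Th1 arrays were below the other 8, and it fell by 1.44 on the log2 scale (SE 0.15, 0.368-fold, adjusted p = 1.76e-05), with -1.45 under 75th percentile scaling. Ndufaf2, a chaperone of late complex I assembly, fell by 0.58 (SE 0.15, adjusted p = 0.00755), with 2040, 2840, 2370 and 2580 on Th1 arrays and 3750, 3650, 3010 and 4320 on untreated arrays. Its groups did not overlap, but it no longer passed under 75th percentile scaling (-0.52, adjusted p = 0.0131) and without 6 of the 8 arrays compared (0.0124 to 0.0244).

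Sdhaf2, which attaches the flavin to Sdha, rose by 0.79 ± 0.12 (adjusted p = 0.000216). It had 4880, 3980, 5070 and 3630 on Th1 arrays and 2510, 2490, 2440 and 2620 on untreated arrays, which did not overlap, beside the overlapping values of Sdha itself. Ndufaf3, a factor of early complex I assembly, rose by 0.54 ± 0.12. Ndufaf8 and Ndufaf5, which act together on the complex I core Ndufs7, had differences of 0.49 ± 0.15 and 0.40 ± 0.12 that did not pass (adjusted p = 0.02 and 0.0161). Sdhaf1, Sdhaf3 and Sdhaf4, the other complex II factors, lay between -0.04 and 0.13.

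The median of the 93 members, taken as the difference from the untreated mean on each array, was 0.15, 0.34, 0.18 and 0.22 on the Th1 arrays of experiments 12, 13, 14 and 16, -0.03, 0.09, 0.03 and 0.05 on the Th17 arrays, and 0.02, 0.01, -0.07 and 0.04 on the untreated arrays. The Th1 array of experiment 13 was highest, and no Th1 array fell within the range of the others. Within experiments the median difference of Th1 minus untreated was 0.14, 0.36, 0.24 and 0.16, and within the 3 slides it was 0.14, 0.35 and 0.16, while over all genes it stayed between -0.07 and -0.03. Complex II had 0.60, 0.59, 0.58 and 0.41 within the experiments. Complex I ran from 0.08 in experiment 16 to 0.36 in experiment 13.

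**Figure D4:**
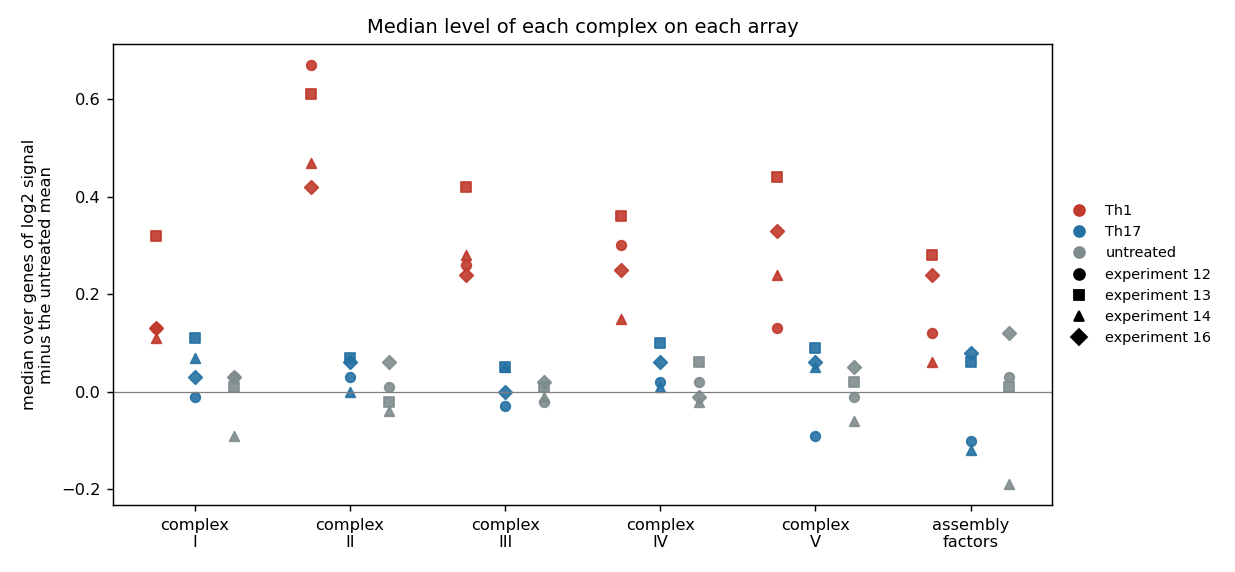
Median over the genes of each complex of the log2 signal minus the untreated mean of the same gene, on each of the 12 arrays. Colour gives the group and shape the experiment. Th1 arrays of complex II lie at 0.42 to 0.67, and for each of complexes I to V the 4 Th1 arrays lie at or above the highest Th17 or untreated array, which is not so for the assembly factors.

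The second comparison asks whether Th17 supernatant changed these transcripts. No member passed in either direction, and neither did any of the genes tested (0% higher, 0% lower and 0% called). The median member difference was 0.03, against 0 over all genes, and all 93 values lay between -0.16 and 0.57. At an unadjusted p under 0.05 stood 1 member, Cox6a2, and 325 genes in all (1.64%). Cox6a2 had 2350, 2970, 2350 and 1730 on Th17 arrays and 2120, 1770, 1190 and 1300 on untreated arrays, a difference of 0.57 ± 0.22 (adjusted p = 1). The Th17 value was the higher one in each experiment, though the groups overlapped.

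In 2 members, Ndufc2 and Ndufa3, the Th17 arrays lay wholly above the untreated ones, against 0.53% of all genes higher and 0.444% lower. Ndufc2, a small membrane arm subunit, had 43900, 47800, 50800 and 44700 on Th17 arrays and 43600, 43200, 38900 and 42000 on untreated arrays, which differ by 0.16 ± 0.09. Ndufa3 had 55500, 59100, 57700 and 53500 on Th17 arrays and 53000, 51300, 51100 and 53200 on untreated arrays, with a difference of 0.11 ± 0.09. For the genes that led the Th1 comparison the Th17 differences were 0.10 ± 0.11 (Sdhd), 0.08 ± 0.10 (Ndufs3), 0.20 ± 0.12 (Cox5a) and -0.06 ± 0.15 (Ndufaf7).

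The third comparison sets Th1 against Th17 supernatant directly. It shares its Th1 arrays with the first one, so that its values are not independent of those above. Of the 93 members 24 were higher and 3 lower after Th1 supernatant, beside 13.4% higher and 15.8% lower over all genes, and 1 was called, against 14.8% of all genes. The median was 0.18, against -0.04 over all genes. Non-overlapping arrays were found in 39 members higher and 4 lower (18.5% and 22.5% over all genes). The count of 24 fell to 15 without the Th17 array of experiment 12 or without the Th1 array of experiment 13, and to 12 without experiment 14 (12.9%, against 9.59% of all genes). Under 75th percentile scaling the count was 56 (60.2%, against 15.5% of all genes).

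Ndufs3 led this comparison at 0.90 ± 0.10 (adjusted p = 2.95e-05), with Sdhd at 0.89 ± 0.11, and Ndufaf7 was again the called member at -1.38 ± 0.15. Under 75th percentile scaling Ndufs3 (1.2), Sdhd (1.17) and Ndufs4 (1.09) were called as well. By complex, 5 of 36 genes rose (13.9%) and 1 fell in complex I, and 1 of 8 rose in complex III (12.5%). Both shares of risen genes are near the 13.4% of all genes. In complexes II, IV and V, 2 of 4, 6 of 16 and 6 of 17 rose (50%, 37.5% and 35.3%). Among assembly factors 4 rose and 2 fell (33.3% and 16.7%, against 13.4% and 15.8% of all genes). Ndufaf5 passed here at 0.56 ± 0.12, as did Ndufaf8 at 0.63 ± 0.15 and Cox6b2 at 0.85 ± 0.21. Ndufaf8 no longer passed without any of 5 single arrays (adjusted p = 0.0151 to 0.0184), and Cox6b2 without any of 6 (0.0178 to 0.0238).

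Genes that surround the chain were taken from lists that hold no member. Of 7 other subunits and carriers, 3 rose (42.9%) and 1 fell (14.3%) after Th1 supernatant against untreated, beside the 13.9% and 16.2% of all genes, to which the shares of the next lists compare as well. Cycs, cytochrome c itself, averaged 79000 on Th1 arrays, against 39000 on Th17 arrays and 37100 on untreated arrays, a rise of 1.09 ± 0.13 that passed the 2-fold threshold. Cyc1, the cytochrome c1 of complex III, rose by 0.76 ± 0.11, and Slc25a5, a carrier that exchanges ADP for ATP, by 0.97 ± 0.13. Atpif1, the inhibitor of ATP synthase, fell by 0.71 (SE 0.10), with a mean of 85900 on Th1 arrays and 140000 on untreated arrays. The phosphate carrier Slc25a3 and the uncoupling protein Ucp2 had differences of -0.26 ± 0.09 and -0.13 ± 0.13, which did not pass.

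Among 35 measured assembly factors with other names, 5 rose (14.3%), a share near that of all genes, and none fell. Sco1, which delivers copper to complex IV, averaged 2250 on Th1 arrays, against 319 on Th17 arrays and 274 on untreated arrays, a rise of 3.04 ± 0.17, where the largest rise of a member was 1.00. Coa5, also of complex IV assembly, rose by 1.68 ± 0.11, and Coa7, Taco1 and Cox11 rose by 0.72, 0.70 and 0.69.

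Of 19 genes of ubiquinone synthesis and of other enzymes that pass electrons to ubiquinone, 4 rose (21.1%) and 3 fell (15.8%, near the share of all genes). Gpd2, the mitochondrial glycerol-3-phosphate dehydrogenase, averaged 4980 on Th1 arrays, against 758 on Th17 arrays and 680 on untreated arrays (2.87 ± 0.17). Pdss1, Coq7 and Coq5, which make ubiquinone, rose by 1.15 ± 0.27, 1.01 ± 0.13 and 0.69 ± 0.12. Coq8a and Coq6 of the same pathway fell by 1.01 and 0.41, and Prodh, the proline dehydrogenase, fell by 1.83 on the log2 scale.

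Of 15 regulators of mitochondrial biogenesis 2 rose (13.3%) and 3 fell (20%), both near the shares of all genes. Ppargc1b, a coactivator of mitochondrial genes, averaged 696 on Th1 arrays, against 102 on Th17 arrays and 82 on untreated arrays (3.08 ± 0.21). The receptor Esrra, whose motif was searched above, averaged 24800, against 13100 and 13600 (0.86 ± 0.09). Any link of Esrra to the 2 members with its motif was not tested. Myc fell by 2.05 on the log2 scale, the mitochondrial helicase Twnk by 0.92 and the transcription factor Tfb2m by 0.54. Nrf1, Gabpa and Tfam, factors known to drive the nuclear and mitochondrial genes of the chain, had differences of -0.25 ± 0.16, -0.10 ± 0.10 and 0.02 ± 0.17, and none passed. Of 77 mitochondrial ribosomal proteins, which translate the subunits encoded in mitochondrial DNA, 6 rose (7.79%) and 3 fell (3.90%), with a median of 0.10. Under 75th percentile scaling 22 rose (28.6%, against 15.1% of all genes). No gene on these lists passed in Th17 against untreated.

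**Figure D5:**
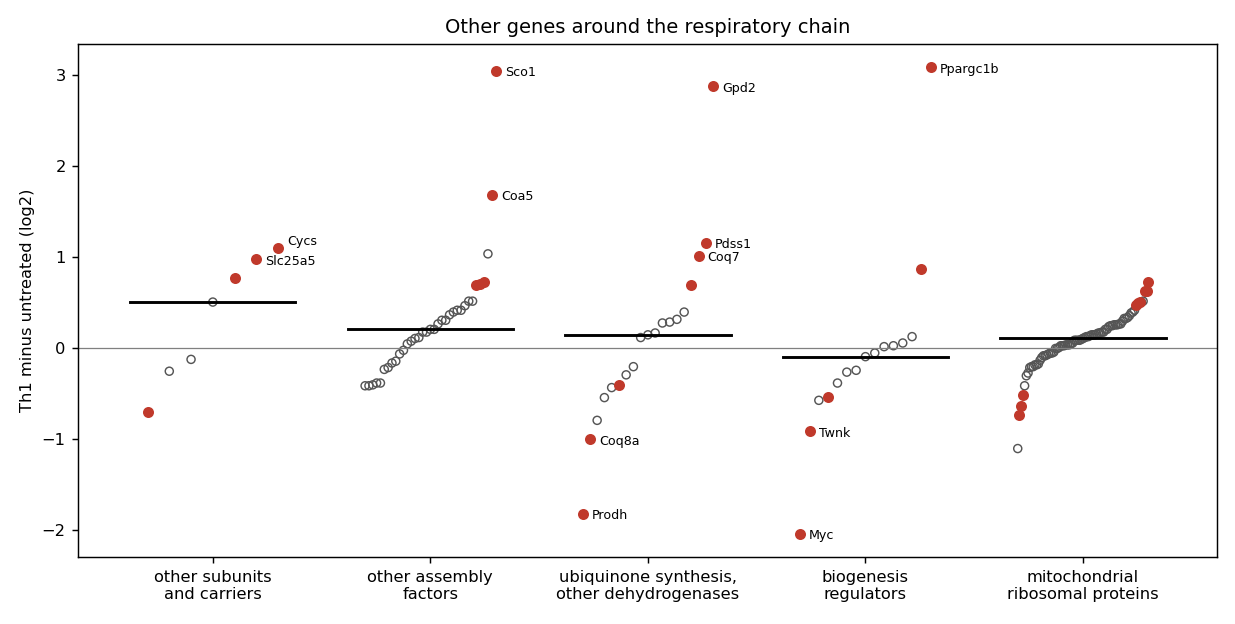
Th1 minus untreated on the log2 scale for genes around the respiratory chain, by list. Each circle is 1 gene, filled where its adjusted p was under 0.01, and bars are medians. Sco1 (3.04), Gpd2 (2.87) and Ppargc1b (3.08) stand far above the rest of their lists.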

How the data were processed

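Cy3-labelled RNA was hybridised to one-colour Agilent arrays, 4 on each of 3 slides. Per the file headers, the authors read the images with Feature Extraction 10.7.3.1 and probes were annotated to build mm9. The deposited scanner files give linear intensity per spot. The deposited value table holds log2 values, which matched 75th-percentile-scaled signal centred on each probe's median (column medians -0.226 to 0.18) and served as an alternative. Outlier spots were left out (103 to 230 per array, none saturated) and spots of a probe were averaged by the geometric mean. Values were quantile normalised, scaled to a 75th percentile of 1500, floored at 15 and log2 transformed, after the study's methods. Between 21486 and 25623 probes per array were well above background, and 24286 were kept. Accessions without versions were matched to RefSeq (GRCm38.p6, for names and promoter windows alone), which named 69.1% of probes. The kept probe that was brightest on average stood for a gene. Where no symbol was matched, each transcript identifier on the array was counted as a gene. Of 23 members with several kept probes, none had probes of opposite sign that both passed. In Th1 against untreated only the brightest probe passed for Atp5c1, Atp5k and Uqcrq, and only the dimmer one for Ndufv3 (0.46). For Sdhb, Sdhc, Atp5pb, Cox8a and Ndufb11 both probes passed.

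The test was limma 3.58.1 in R 4.3.3 (lmFit and eBayes, 1 mean per group over 12 arrays, Benjamini-Hochberg over 19801 genes), checked on simulated data. The number of arrays limits the precision. The members and lists were chosen with earlier results of these data known. Named members had the up to 12 largest rises and falls past the threshold in a comparison, were the extremes of a complex, or were fixed core subunits and isoforms. Ndufs7, Ndufv2, Ndufb9, Ndufa3, Uqcrq, Uqcrc2, Cox5b, Atp5c1, Atp5k, Ndufaf3, Sdhaf1, Sdhaf3 and Sdhaf4 were named after their values were seen. The experiment numbers pair the samples, since the study describes independent experiments and same-numbered arrays deviated together (correlations of 0.24 to 0.63). Alternatives covered scaling, background correction (normexp, on the median foreground signal), floor, filter, probe choice, blocks, the arrays in the fit and leaving out each array.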

Additional observations from a re-analysis of the deposited data

Results flagged for a closer look

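In groups of 4 arrays, 1 array of a named member lay far from the other 3 in 10 cases. Over the 279 groups of all members there were 18 such cases (6.45%), where chance gives about 1 in 20. The Th1 array of experiment 16 was low for Ndufs4 (17200, against at least 22100 on the others) and for Cox6b2 (245, against at least 371), and the untreated array of experiment 16 was also low for Cox6b2 (134, against at least 231) and for Ndufs3 (29900). The untreated array of experiment 16 was high for Sdha (22300). The Th1 array of experiment 13 was high for Ndufv1 (32800) and Uqcr11 (60800), and it held 6 of the 18 cases. The remaining ones were a low Atp5md on the Th17 array of experiment 12 (45300), a high Cox8a on the untreated array of experiment 13 (174000) and a low Ndufa8 on the untreated array of experiment 14 (10100).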

How the results depend on the processing

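The counts depended most on the scaling. With each array scaled to its 75th percentile in place of quantile normalisation, and likewise with the deposited value table, 48 members rose, 1 fell and 5 were called in Th1 against untreated (median 0.42), and 56 rose, 1 fell and 4 were called in Th1 against Th17 (median 0.43). Under 75th percentile scaling 51.6% and 60.2% of members rose in these comparisons, against 15.1% and 15.5% of all genes. After normexp 3 members were called in Th1 against untreated. Without experiment 14, an alternative chosen after seeing the data, 13 rose and 2 were called in Th1 against untreated, and 12 rose in Th1 against Th17. When single arrays were left out, Th1 against untreated gave 17 to 25 risen, 2 to 3 fallen and 1 to 4 called members with a median of 0.17 to 0.25, and Th1 against Th17 gave 15 to 22, 2 to 3 and 1 to 2 with a median of 0.14 to 0.21. The largest count of called members, 4, came without the Th1 array of experiment 16. In Th17 against untreated no member passed under any alternative run, and the median was 0.02 to 0.06 without single arrays. With the experiment as a replicate block, 31 members rose and 3 fell in Th1 against untreated (33.3% rose, against 17.6% of all genes), and 28 and 3 in Th1 against Th17. The block moved Cox6a1 and Cox6b2 (Th1 against untreated) and Sdhc (Th1 against Th17, adjusted p = 0.00651) past the threshold and changed no other call of a named member. No named member that passed in any setting changed sign. The cause of these shifts was not tested.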
